A study of Mus musculus with 57 samples.

Results

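The 61 core histone genes described here are the protein-coding genes of the mouse clusters Hist1, Hist2, Hist3 and Hist4 that encode H2A, H2B, H3 and H4. They were chosen by symbol and gene type from GENCODE release M21 (names starting with Hist1h2, Hist1h3, Hist1h4, Hist2h, Hist3h or Hist4h) among the 59119 rows of one deposited table, which lists 54446 Ensembl identifiers and 4673 XLOC loci. H2A has 18 of the genes, H2B 18, H3 12 and H4 13; 48 lie in Hist1, 10 in Hist2, 2 in Hist3 and 1 in Hist4. The rule reads names and gene types, not values.

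Core histones form the spool around which DNA is wound, and a cell has to make a new set each time it copies its genome. Most of their messengers end in a conserved stem-loop in place of a poly(A) tail, and the stem-loop binding protein SLBP controls their processing, translation and decay, so that they build up in S phase. Oocytes store core histone messengers, on which the embryo relies until it transcribes its own genes, and libraries of total RNA, the kind used here, are not limited to messengers with a poly(A) tail.

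RNA of mouse oocytes and embryos was sequenced in 57 samples of 18 groups, held in 43 columns; the 7 groups with 4 samples in 2 columns have column names that mark them as merged or concatenated. The first series comprised wild-type C57BL/6 MII oocytes, zygotes, embryos of the E2-cell, L2-cell, 4-cell and 8-cell stages, morulae and blastocysts, with 2 columns each (n = 2), where E2-cell and L2-cell are taken as early and late 2-cell. The second comprised wild-type BDF1 embryos at 14, 17 and 20 hours after fertilization, with 2 columns each. In the third, BDF1 embryos of the genotype LncR-3363 KD came from MII oocytes injected with 5 to 10 pL of an antisense oligonucleotide (ASO) at 20 uM: 4 columns are KD-1cell and 1 is KD-2cell, and 4 wild-type BDF1 columns are Ctrl. The fourth comprised BDF1 embryos in which Cas9 had been aimed at MT2Mm (genotype MT2Mm KO), the repeat that drives the endogenous retrovirus MERVL, and wild-type BDF1 ctrl embryos, each at Early2c and Late1c with 3 columns. Their MII oocytes received Cas9 mRNA (100 ng/uL) together with guide RNA (150 ng/uL), and the mice were 6 to 8 weeks old. Embryos came from in vitro fertilization with BDF1 sperm, and a TruSeq library, the kit that the labels name for the stages of early development, took about 150 to 200 embryos. The sources used here do not give what the control oocytes received or in how many embryos MT2Mm was cut. No row of the table carries the name LncR-3363 or MT2Mm, so the targets themselves were not analysed here, and the knockdown columns, matched to LncR-3363 as the only knockdown in the labels, name the RNA differently. The 4 of them whose names carry no stage were taken as KD-1cell, the knockdown group of 4 samples.

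The unit is FPKM, in which fragments are scaled to transcript length and library total, so levels of different genes are compared per length. Read counts are not given, and depth is unknown. FPKM summed to 311543 to 720832 per column, 10704 to 12892 rows reached 1 FPKM, and small and ribosomal RNA took 15.2% to 68.7% of the sum. Core histone genes held 1.01% to 9.98% of the protein-coding sum outside the mitochondrial genome, with 9.98% in L2-cell replicate 2, 5.80% in L2-cell replicate 1, 5.54% in zygote replicate 1 and 3.95% in zygote replicate 2. The 12 markers of cumulus and granulosa cells summed to 2.40 to 38.6 FPKM per column, with 2.47 to 2.63 FPKM in L2-cell, 4.53 to 13.5 FPKM in 4-cell and 36.2 to 38.6 FPKM in blastocyst columns, and the 12 markers of sperm and testis to 0.252 to 10.8 FPKM, with Smcp and Tnp1 at 0 in both columns of every stage. Of the sperm and testis markers 2 had a mean of 1 FPKM or more in MII oocytes, zygotes and E2-cell embryos. The number was 1 in L2-cell and 4-cell embryos and 0 from the 8-cell stage on. Of the 2 that passed the filter in the stages, 1 was called lower in E2-cell embryos. In L2-cell embryos 1 was called higher and 1 lower, and in 8-cell embryos 1 was called lower. Ptx3 and Inha, of cumulus and granulosa cells, were at 0 in both columns of every stage from L2-cell to blastocyst. Cyp19a1, Fshr, Has2, Inhba, Ptgs2 and Tnfaip6 were also at 0 in both blastocyst columns, where 2 of the 12 had a mean of 1 FPKM or more. Of the 3 cumulus markers that passed the filter in the stages, Col4a1 was called lower in E2-cell and L2-cell embryos and higher at each step from 4-cell (0.63) to blastocyst embryos (0.96), Gja1 higher in L2-cell (1.60) and 4-cell embryos (2.09), and Cyp19a1 lower in E2-cell, L2-cell and 4-cell embryos; their part in the results was not tested. Changes between groups are log2 differences of FPKM + 0.5 with their standard error (SE), and a gene is said to have risen, fallen or been called at an adjusted p under 0.05 over all rows tested (limma, Benjamini-Hochberg). Nothing in the labels says that replicates came from separate pools of animals, so p-values measure the spread between these libraries, which may be technical.

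The stem-loop sets these messengers apart, so its letters, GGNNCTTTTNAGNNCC, were read on the sense strand of the GENCODE M21 transcripts. They stood in 98 of 58797 protein-coding transcripts (0.167%), which belong to 72 genes: 40 core histone genes, 4 linker histone genes named Hist1h1 and 28 others. Of the 61 core histone genes 49 have a transcript model that runs past the stop codon, and 40 of those 49 hold the letters. The other 12 models, among them those of Hist1h2aa, Hist1h2ak, Hist2h2bb and Hist1h3i, end at the stop codon and hold none; FPKM divides by the length of such models, so levels between genes are approximate. The letters took 6 forms, each shown by a gene described further on or by its only member, with the stem-loop in capitals between its flanks (GRCm38).
Hist2h2aa2, chr3:96239779-96239804, minus strand, a form shared by 23 genes: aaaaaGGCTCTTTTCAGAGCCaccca
Hist1h3f, chr13:23544927-23544952, plus strand, shared by 5 genes: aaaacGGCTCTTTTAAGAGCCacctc
Hist2h2ac, chr3:96220413-96220438, minus strand, in 1 gene: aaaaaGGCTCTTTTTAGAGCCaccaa
Hist1h4c, chr13:23698084-23698109, minus strand, shared by 7 genes: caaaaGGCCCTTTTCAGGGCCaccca
Hist2h4, chr3:96262934-96262959, minus strand, shared by 2 genes: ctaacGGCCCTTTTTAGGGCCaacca
Hist1h4b, chr13:23757361-23757386, plus strand, shared by 2 genes: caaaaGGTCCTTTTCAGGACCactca
The last 3 forms, with C paired with G at the fourth base of the stem, were found in H4 genes, and the first 3, with T paired with A, in H2A, H2B and H3 genes.

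Promoters were read next, because many of the genes lie side by side. RefSeq windows of 250 bases before to 50 bases after the gene start (GRCm38.p6) were matched for 55 of the 61 genes. On either strand TATAAA, the TATA box, stood in 31 of the 55 windows (56.4%, against 15.7% of all 27025 genes), CCAAT, the box bound by NF-Y, in 46 (83.6%, against 41.1%), and ATTTGCAT, the octamer bound by OCT1, in 14 (25.5%, against 1.97%). The octamer was found in 7 H2A and 7 H2B windows and in no H3 or H4 window. Windows of close neighbours on opposite strands overlap, so 1 site can count for both genes, as the octamer of Hist1h2aa and Hist1h2ba does. The counts of windows are therefore not counts of separate sites. In 12 cases an H2A and an H2B gene start back to back, 176 to 306 bases apart. Such pairs did not all change together. From L2-cell to 4-cell embryos Hist1h2bk went from 713 and 1166 to 280 and 306 FPKM. Its partner Hist1h2ah went from 60.9 and 87.4 to 101 and 103 FPKM. The windows of Hist1h2aa (TH2A, which shares its window with Hist1h2ba, TH2B, at 306 bases), of Hist1h2bm and Hist1h2ak, which rose, and of Hist1h4c, which fell, are shown with these 3 motifs in capitals on whichever strand they lie.
Hist1h2aa, chr13:23934187-23934486, plus strand: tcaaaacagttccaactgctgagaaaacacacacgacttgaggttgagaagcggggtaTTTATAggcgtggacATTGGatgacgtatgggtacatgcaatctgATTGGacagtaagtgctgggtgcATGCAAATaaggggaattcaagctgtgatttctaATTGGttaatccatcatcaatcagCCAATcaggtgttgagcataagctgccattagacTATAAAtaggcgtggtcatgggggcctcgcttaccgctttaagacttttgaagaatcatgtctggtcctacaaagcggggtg
Hist1h2bm, chr13:21721794-21722093, plus strand: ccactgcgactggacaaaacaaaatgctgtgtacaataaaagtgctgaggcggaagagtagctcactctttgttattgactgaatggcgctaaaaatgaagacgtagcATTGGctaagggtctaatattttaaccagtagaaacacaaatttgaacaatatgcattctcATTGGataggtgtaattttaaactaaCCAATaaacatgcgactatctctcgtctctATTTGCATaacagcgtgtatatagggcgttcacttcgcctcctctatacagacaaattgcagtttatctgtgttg
Hist1h2ak, chr13:21753863-21754162, minus strand: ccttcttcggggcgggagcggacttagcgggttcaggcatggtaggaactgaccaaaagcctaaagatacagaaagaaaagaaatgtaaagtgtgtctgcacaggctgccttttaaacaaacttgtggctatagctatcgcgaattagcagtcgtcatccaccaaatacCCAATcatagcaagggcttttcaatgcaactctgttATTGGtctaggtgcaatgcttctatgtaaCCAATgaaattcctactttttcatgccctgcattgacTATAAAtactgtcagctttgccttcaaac
Hist1h4c, chr13:23698409-23698708, minus strand: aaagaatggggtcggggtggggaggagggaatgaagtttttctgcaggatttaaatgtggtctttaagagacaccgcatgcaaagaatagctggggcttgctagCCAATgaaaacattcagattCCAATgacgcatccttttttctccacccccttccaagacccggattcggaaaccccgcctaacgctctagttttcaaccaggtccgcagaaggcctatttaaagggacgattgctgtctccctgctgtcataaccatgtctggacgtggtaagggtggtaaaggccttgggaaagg
A match describes the letters only; no binding was measured.

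Many of the genes are near copies. Hist2h2aa1 and Hist2h2aa2 have identical coding sequences (393 bases, 0 differences). Among H2A genes of the same coding length the next closest, Hist1h2ai, differs from them at 32 bases; other lengths were not compared. Hist1h2ao and Hist1h2ap, Hist1h2bq and Hist1h2br, Hist2h3c1 and Hist2h3c2, and Hist1h4m and Hist1h4n are identical over their coding bases too. How the counting treated fragments that match both genes of such a pair is not known, so their single values are uncertain. Hist2h3c1, for example, was at most 1.83 FPKM in all stage columns and 27.6 to 47.3 FPKM in the columns at 14 to 20 hours. Hist2h2aa1 was at or near 0 in both morula columns and in 1 column at 20 hours, 2 of KD-1cell, the KD-2cell column and 1 of Late1c ko, while Hist2h2aa2 was not low there. At 20 hours Hist2h2aa1 had 0 and 853 FPKM and Hist2h2aa2 had 883 and 967 FPKM. In the 4 KD-1cell columns Hist2h2aa1 had 0, 788, 1311 and 0 FPKM, and Hist2h2aa2 had 749, 811, 1328 and 1271 FPKM. Whether fragments were counted in both genes was not tested, so H2A sums and shares that hold both may count some fragments 2 times. Hist2h2be, an H2B gene, never passed 0.770 FPKM. Hist3h2a, an H2A gene, differed widely between replicates of the early stages. It had 0.340 and 24.3 FPKM in MII oocytes, 54.6 and 0.675 FPKM in E2-cell and 38.8 and 0.480 FPKM in L2-cell embryos. In zygotes it had 0.133 and 0.428 FPKM, so its changes between these stages rest on single columns.

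Up to the L2-cell stage a few genes supplied most of each class, and from the 4-cell stage on many did. Hist2h2aa2 with its copy Hist2h2aa1 made up 77.9% of summed H2A FPKM in MII oocytes, 80.5% in zygotes, 83.2% in E2-cell and 80.8% in L2-cell embryos. In 4-cell embryos the 2 largest H2A genes, Hist1h2ak and Hist2h2aa2, held 20.7% together. Hist1h3f held 55.1%, 62.0%, 55.3% and 54.5% of H3, and Hist1h4c 41.3%, 37.6%, 40.4% and 37.3% of H4, over the same first 4 stages. At the 4-cell stage the leaders were Hist1h3a with 14.5% of H3 and Hist1h4n with 17.3% of H4. H2B was led in MII oocytes by Hist1h2ba, the gene of the germline variant TH2B (34.7%), then by Hist1h2bk (36.4% in zygotes, 36.6% in L2-cell embryos), and from the 8-cell stage by Hist2h2bb (19.8%, 21.3% in morulae, 21.8% in blastocysts). The genes above 5% of their class numbered 11 for H2A, 7 for H2B, 9 for H3 and 10 for H4 in 4-cell embryos, against 3, 4, 3 and 7 in L2-cell embryos. All groups of the BDF1 series, none of which is labelled past the 2-cell stage, had the early pattern for H2A, with 74.0% to 86.2% in the 2 largest genes. For H3 and H4 the same genes led with smaller shares in the knockdown and MT2Mm groups. There Hist1h3f held 29.4% to 33.2% of H3 and Hist1h4c 23.7% to 26.1% of H4. At 14 to 20 hours they held 41.8% to 48.4% and 36.3% to 37.9%.

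**Figure D1:**
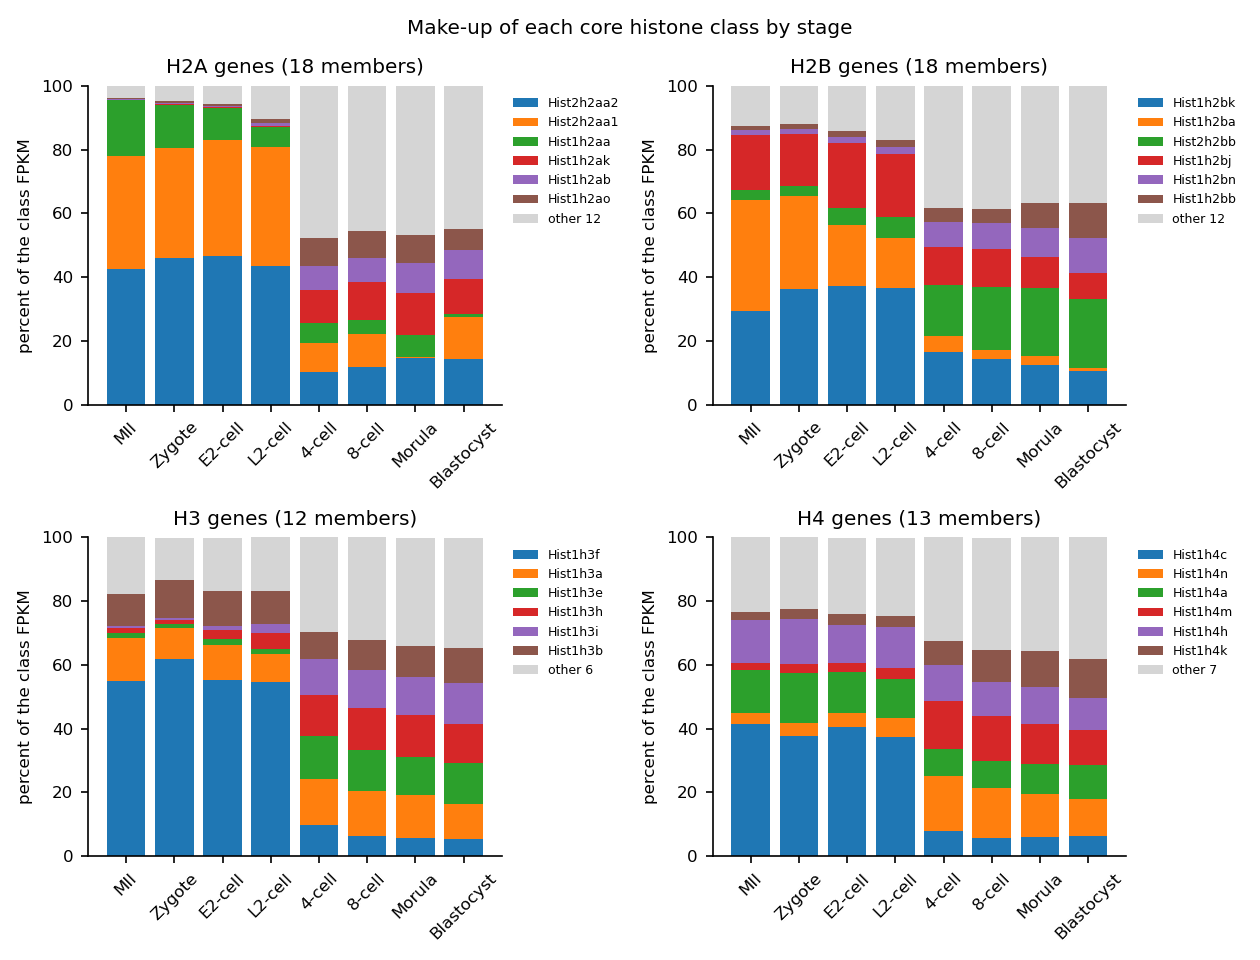
Percent of summed FPKM of each histone class (vertical axis) held by its 6 genes with the largest share and by the others together, at each stage (horizontal axis), with 1 panel per class. Up to the L2-cell stage Hist2h2aa2 with Hist2h2aa1 (77.9% to 83.2% of H2A), Hist1h3f (54.5% to 62.0% of H3) and Hist1h4c (37.3% to 41.3% of H4) fill large parts of the bars, and from the 4-cell stage the bars are divided among many genes.

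Between MII oocytes and zygotes the question was what changed around fertilization, and 1 of 59 genes tested was called, lower; 2.03% of all rows were lower and 1.73% higher by the same call. It was Hist1h2be, an H2B gene, with 0.0643 and 0.0119 FPKM in zygotes and 0.948 and 0.765 FPKM in MII oocytes, levels near the filter. The genes' median change was 0.55, against 0.00 over all rows; 54 of 59 lay above 0 and 29 had an unadjusted p under 0.05. Hist1h3f, the main H3 gene, had 1475 and 634 FPKM in zygotes and 504 and 417 FPKM in MII oocytes (1.08, SE 0.34, adjusted p = 0.11). Its zygote columns lay further from each other than the lower of them lay from the oocytes. Zygote replicate 2 shares a tag in its column name with MII replicate 1, and zygote replicate 1 shares none with either MII column. With zygote replicate 2 left out, the tag and the stage therefore cannot be told apart. Without zygote replicate 2 the test called 24 genes higher and 1 lower, without zygote replicate 1 it called 1 each way, without MII replicate 1 the call of Hist1h2be was lost and 1 other gene was called higher, and with another scaling or a pseudocount of 1 it called 2 higher and 1 lower.

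In E2-cell embryos 9 of 59 genes rose against zygotes and none fell, where 17.9% of all rows rose and 26.2% fell, so the share of risers (15.3%) was near the background. They were 6 H2A and 3 H2B genes, and the largest changes among them were in genes with little stored messenger. Hist1h2bm, an H2B gene, had 28.2 and 18.8 FPKM in E2-cell embryos and 3.31 and 4.32 FPKM in zygotes (2.46, SE 0.22, adjusted p = 5.0e-06). Hist2h2ac, an H2A gene, had 10.1 and 6.98 FPKM in E2-cell embryos and 2.75 and 2.55 FPKM in zygotes (1.50, SE 0.25, adjusted p = 0.00058). For both genes each E2-cell column lay above each zygote column, as it did for Hist1h2ak (1.20) and Hist1h2an (1.15), both H2A. Without E2-cell replicate 1 the count was 5. With only the zygote column whose name shares a tag with both E2-cell columns, 5 genes rose and 4 fell.

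In L2-cell embryos, the stage of the main wave of genome activation in the mouse, 23 of 59 genes rose and 1 fell against E2-cell embryos, where 31.1% of all rows rose and 37.6% fell. H2A gave 12 of the 23, H4 5, H3 4 and H2B 2, and the median change was 0.44, against -0.10 over all rows. Hist2h2ab, an H2A gene, had 8.20 and 14.6 FPKM in L2-cell embryos and 2.05 and 1.78 FPKM in E2-cell embryos (2.25, SE 0.29, adjusted p = 3.4e-05). Hist1h3c, an H3 gene, had 55.1 and 102 FPKM in L2-cell embryos and 25.4 and 18.9 FPKM in E2-cell embryos (1.76, SE 0.31, adjusted p = 0.00036). Both genes were higher in each L2-cell column, although L2-cell replicate 2 was the higher by far; Hist1h3i (1.71) and Hist1h2bm (1.57) rose too. The gene that fell was Hist1h2aa, which encodes TH2A, the germline partner of TH2B, with 209.9 and 373 FPKM in L2-cell embryos and 524 and 431 FPKM in E2-cell embryos (-0.76, SE 0.28, adjusted p = 0.032). That call was lost without E2-cell replicate 1 (adjusted p = 0.15) or L2-cell replicate 1 (adjusted p = 0.31), without the filter on low values (0.064) and with a replicate block (0.051), and the count was 15 without E2-cell replicate 2. Both E2-cell columns carry 1 tag in their names and both L2-cell columns another, and columns of later stages carry neither, so the tag and the stage cannot be told apart at this step or the next.

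Between the L2-cell and the 4-cell stage the core histone genes split: 25 of 59 rose and 14 fell in 4-cell embryos. Over all rows 30.2% rose and 26.2% fell, so changes both ways were not particular to these genes. The share of core histone genes that rose was 42.4%, and the share that fell (23.7%) was no higher than the background. Those that fell included the main gene of each early class. Hist2h2aa2 had 140.4 and 163 FPKM in 4-cell embryos and 1309 and 2646 FPKM in L2-cell embryos (-3.61, SE 0.28, adjusted p = 1.9e-06). Hist1h4c had 136 and 146 FPKM in 4-cell embryos and 857 and 1482 FPKM in L2-cell embryos (-2.99, SE 0.28, adjusted p = 6.3e-06). Hist1h3f had 158 and 151 FPKM in 4-cell embryos and 769.5 and 1262 FPKM in L2-cell embryos (-2.67, SE 0.34, adjusted p = 6.4e-05). For these 3 genes the 4-cell columns lay close together and far below both L2-cell columns. The H4 gene Hist4h4, the only gene of its cluster, had the largest fall, to 10.1 and 10.5 FPKM in 4-cell embryos, against 105 and 219.7 FPKM in L2-cell embryos (-3.82, SE 0.35, adjusted p = 5.3e-06). The back-to-back pair of germline variants fell together: Hist1h2ba by 2.15 (SE 0.29, adjusted p = 8.7e-05) and Hist1h2aa by 1.60 (SE 0.28, adjusted p = 0.0006). Hist1h2bk fell by 1.64 and Hist1h2bj by 1.29, the main H2B genes before. In bulk samples fewer cells of a type and less RNA per cell cannot be told apart, and here the number of cells per embryo differs by stage too.

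The genes with the largest rise of each class at the 4-cell stage had been scarce before it. Hist1h2ak, an H2A gene, had 146 and 168 FPKM in 4-cell embryos and 13.8 and 17.8 FPKM in L2-cell embryos (3.28, SE 0.23, adjusted p = 9.3e-07). Hist1h3e, an H3 gene, had 208 and 217 FPKM in 4-cell embryos and 23.3 and 40.9 FPKM in L2-cell embryos (2.77, SE 0.34, adjusted p = 4.1e-05). Hist1h4d, an H4 gene, had 122 and 128 FPKM in 4-cell embryos and 22.7 and 29.9 FPKM in L2-cell embryos (2.24, SE 0.20, adjusted p = 4.7e-06). In each of the 3 both 4-cell columns were far above both L2-cell columns, and Hist1h2bg, an H2B gene, did likewise (1.96, SE 0.21, adjusted p = 1.6e-05). Other risers had not been scarce: Hist2h2bb, an H2B gene, had 265 and 309 FPKM in 4-cell embryos and 129 and 207 FPKM in L2-cell embryos (0.81, SE 0.24, adjusted p = 0.014), and Hist1h4n rose by 0.74 (SE 0.23, adjusted p = 0.018). By class 8 H2A genes rose and 3 fell, 7 H2B rose and 4 fell, 5 H3 rose and 2 fell, and 5 H4 rose and 5 fell. The sums of H2A, H2B and H4 were nevertheless lower in both 4-cell columns than in both L2-cell columns: H2A summed to 1495 ± 116 FPKM in 4-cell and 4542 ± 2187 FPKM in L2-cell embryos (SD, n = 2 each), H4 to 1809.5 ± 120.0 and 3135 ± 1204 FPKM, H2B to 1771.5 ± 151 and 2571 ± 820.1 FPKM, and H3 to 1584 ± 72.7 and 1863 ± 623 FPKM. For H3 the columns overlapped, with 1532 and 1635 FPKM in 4-cell and 1422 and 2303 FPKM in L2-cell embryos, so the direction of its means rests on L2-cell replicate 2. Without Hist2h2aa1, H2A summed to 1356 ± 99.8 FPKM in 4-cell and 2850 ± 1201 FPKM in L2-cell embryos (SD, n = 2 each). No test was run on the sums. Without L2-cell replicate 2 the split was 32 higher and 11 lower, and without L2-cell replicate 1 it was 19 and 13.

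**Figure D2:**
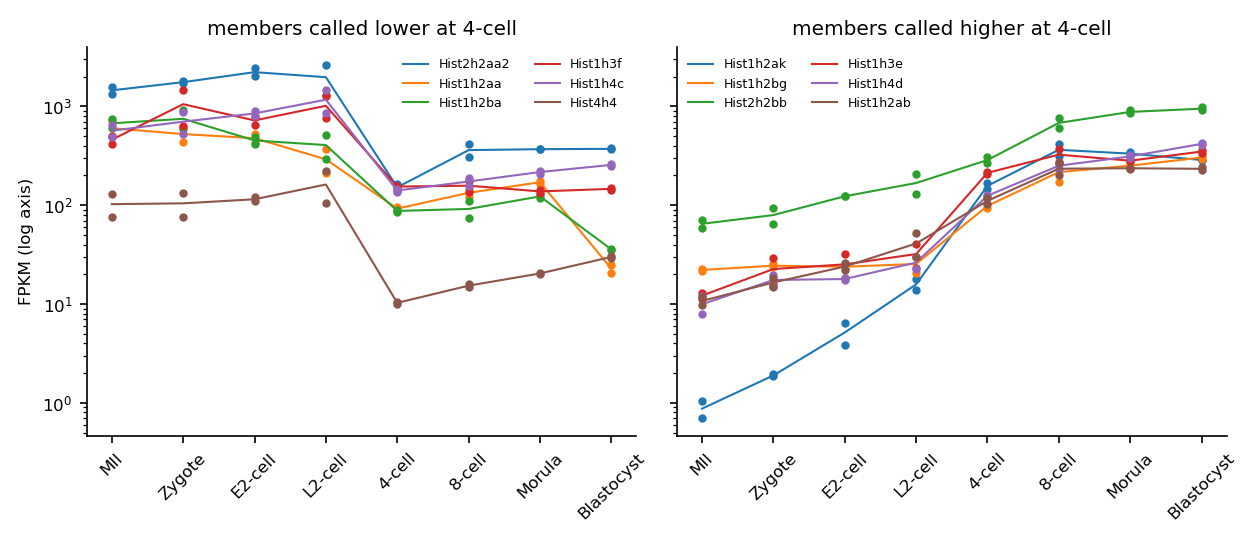
FPKM on a log axis (vertical) of 12 core histone genes in each column of the 8 stages (horizontal), where points are columns and lines join the means. On the left are 6 genes called lower in 4-cell than in L2-cell embryos, such as Hist2h2aa2 (140.4 and 163 against 1309 and 2646 FPKM), and on the right 6 called higher, such as Hist1h2ak (146 and 168 against 13.8 and 17.8 FPKM).

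In 8-cell embryos 35 of 59 genes rose against 4-cell embryos and 1 fell, where 13.4% of all rows rose and 21.6% fell, and 58 of 59 lay above 0 with a median of 0.85, against -0.10 over all rows. H2A gave 14 of 18 tested, H2B 12 of 17, H4 7 of 13 and H3 2 of 11. Hist1h2be, which had been near 0 in zygotes, had 42.3 and 35.9 FPKM in 8-cell embryos and 10.4 and 13.4 FPKM in 4-cell embryos (1.68, SE 0.22, adjusted p = 0.00027). Hist2h2bb, later the main H2B gene, had 759.9 and 602 FPKM in 8-cell embryos and 265 and 309 FPKM in 4-cell embryos (1.24, SE 0.24, adjusted p = 0.0025). The 8-cell columns were above the 4-cell columns for both, and Hist2h4 (1.35), Hist2h3c2 (1.32) and Hist2h2ac (1.31) rose as well. Hist1h3f (0.02) and Hist1h4c (0.30), the early leaders, were not called. The H2B gene Hist3h2ba fell, to 0.660 and 0.945 FPKM in 8-cell embryos, against 3.32 and 3.13 FPKM in 4-cell embryos. The total of calls was 17 without 8-cell replicate 1 and 21 without 4-cell replicate 3.

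After the 8-cell stage few core histone genes were called. In morulae 2 of 59 rose against 8-cell embryos and 2 fell (8.39% and 12.5% of all rows), and in blastocysts 1 rose against morulae and 2 fell (22.4% and 16.3%). In each step 1 of the calls was Hist2h2aa1, whose morula values of 11.7 and 0.0243 FPKM stand beside 369 and 370.0 FPKM for its identical copy. The germline variants fell again in blastocysts, from morula levels above those of 4-cell embryos (Hist1h2aa 88.3 and 96.5 FPKM, Hist1h2ba 85.9 and 89.2 FPKM). Hist1h2aa had 25.0 and 20.6 FPKM in blastocysts and 165 and 177 FPKM in morulae (-2.88, SE 0.28, adjusted p = 9.4e-06). Hist1h2ba had 36.4 and 35.1 FPKM in blastocysts and 118 and 127 FPKM in morulae (-1.77, SE 0.29, adjusted p = 0.00049). Blastocyst and morula columns did not overlap for either. Hist3h2ba (2.25) and Hist1h2bb (1.12), both H2B, rose in morulae, where Hist2h2ab fell by 1.20; the last 2 calls were each lost without 1 of the morula columns (replicate 2 for Hist1h2bb, replicate 1 for Hist2h2ab) or 1 of the 8-cell columns.

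In the series timed from fertilization, 1 of 59 genes rose and 7 fell at 17 hours against 14 hours, where 20.5% of all rows rose and 16.5% fell. H3 gave 5 of the 7, among them Hist2h3b, Hist2h3c1 and Hist2h3c2. Their coding sequences differ by 0 or 1 base, so fragments may be shared among them and they may not be separate falls. Hist2h3b had 50.5 and 49.9 FPKM at 17 hours and 75.6 and 79.7 FPKM at 14 hours (-0.62, SE 0.05, adjusted p = 0.0008). The 2 times did not overlap, and its near copies Hist2h3c1 (-0.58) and Hist2h3c2 (-0.44) fell with it. The riser was Hist2h2bb, with 37.9 and 40.2 FPKM at 17 hours and 27.5 and 32.6 FPKM at 14 hours (0.38, SE 0.08, adjusted p = 0.015), a call lost without 17-hour replicate 2, when the count was 3.

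At 20 hours 47 of 59 genes rose against 17 hours and none fell, where 5.13% of all rows rose and 14.5% fell. The rises were small, with a median change of 0.49 against -0.07 over all rows, and took in 13 H2A, 15 H2B, 11 H3 and 8 H4 genes. Hist1h3i, an H3 gene, had 9.14 and 9.94 FPKM at 20 hours and 5.04 and 4.72 FPKM at 17 hours (0.90, SE 0.07, adjusted p = 0.0016). Hist1h2ap, an H2A gene, had 11.5 and 11.4 FPKM at 20 hours and 6.05 and 5.75 FPKM at 17 hours (0.90, SE 0.08, adjusted p = 0.0019). Hist1h2bb (0.84) and Hist1h2an (0.83) followed, and for all 4 genes both 20-hour columns were above both at 17 hours. The germline variants Hist1h2aa (0.26, adjusted p = 0.064) and Hist1h2ba (0.12, adjusted p = 0.31) and the main H4 gene Hist1h4c (0.29, adjusted p = 0.091) did not pass. Hist2h2aa2 had 883 and 967 FPKM at 20 hours and 702 and 716 FPKM at 17 hours (0.38, SE 0.07, adjusted p = 0.015), a call lost when either 17-hour column or 20-hour replicate 2 was left out. Leaving out either column of either time gave 30 or 31 calls, and 24 genes were called without the filter on low values. The cumulus marker Vim also read higher, 1.28 ± 0.18 FPKM at 20 hours and 0.0707 FPKM at 17 hours (mean ± SD, n = 2 each), and of the 3 cumulus markers tested 2 rose and 1 fell; their part in the result was not tested.

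**Figure D3:**
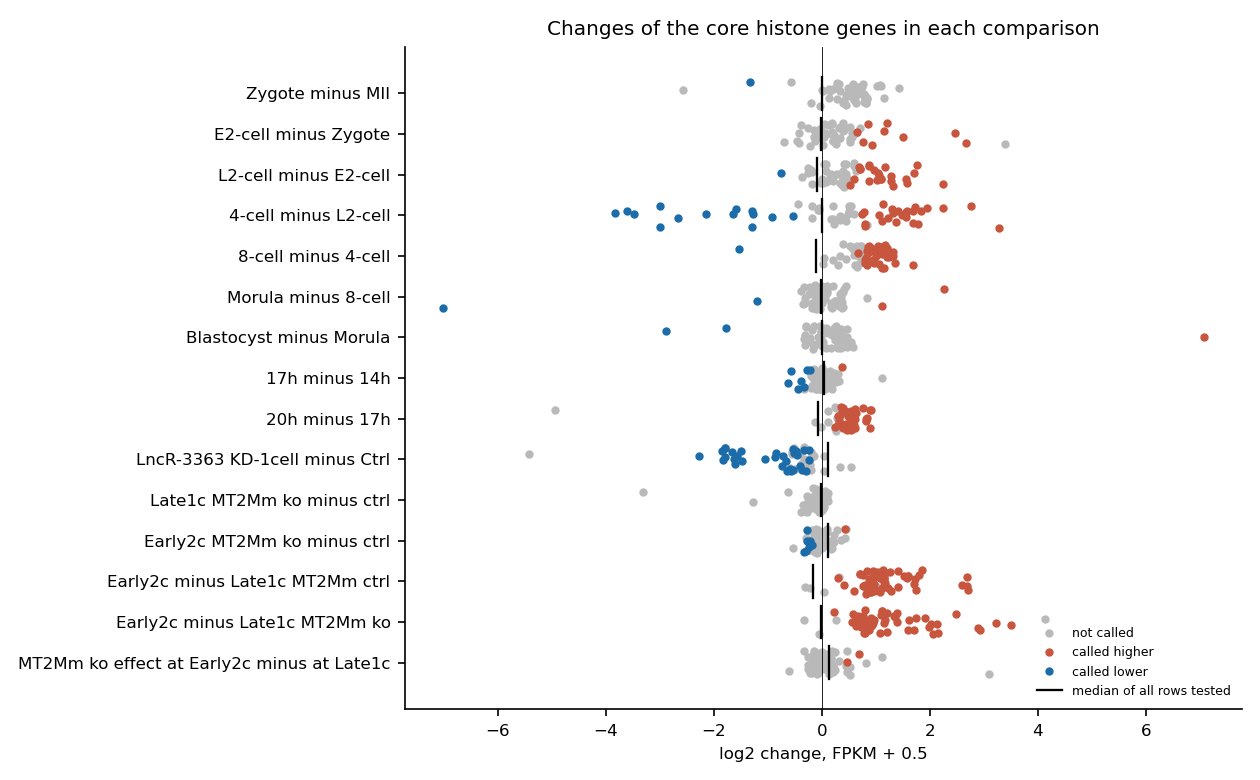
Log2 change of FPKM + 0.5 (horizontal axis) of every tested core histone gene in the 15 comparisons (rows), coloured by whether it was called higher, called lower or not called, with a black tick at the median of all rows tested. Most points lie right of the tick for 8-cell against 4-cell (median 0.85 against -0.10) and for 20 against 17 hours (0.49 against -0.07), and left of it for the knockdown (-0.50 against 0.12).

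In the LncR-3363 knockdown H2B messengers were the core histone genes that differed most between KD-1cell and Ctrl. The labels give no stage for Ctrl, so an effect of the knockdown and a difference of stage cannot be told apart here. Of 58 genes tested 32 fell and none rose in KD-1cell embryos against Ctrl, where 13.9% of all rows fell and 29.8% rose, and the median change was -0.50, against 0.12 over all rows. H2B gave 15 of its 17, with a median of -1.56, whereas 7 of 17 H2A genes fell (median -0.37; Hist1h2ak by 1.79), 6 of 12 H3 genes (-0.35) and 4 of 12 H4 genes (-0.37); the difference between classes was not tested. Hist1h2bk, the main H2B gene of Ctrl embryos, had 45.6, 46.4, 78.0 and 74.4 FPKM in KD-1cell and 218, 197, 202 and 234 FPKM in Ctrl embryos (-1.83, SE 0.18, adjusted p = 4.3e-05). Hist1h2bh had 1.74, 1.89, 2.17 and 3.17 FPKM in KD-1cell and 13.6, 11.8, 11.1 and 13.6 FPKM in Ctrl embryos (-2.27, SE 0.15, adjusted p = 4.5e-06). Every KD-1cell column was below every Ctrl column for both, as for 14 H2B genes and 19 core histone genes in all (41.8% of all rows did not overlap between the groups). The single KD-2cell column had 131 FPKM of Hist1h2bk and 5.03 FPKM of Hist1h2bh, between the 2 groups.

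The 2 H2B genes that were not called were Hist2h2bb, with 51.6, 47.1, 76.8 and 114 FPKM in KD-1cell and 45.4, 45.5, 73.3 and 54.9 FPKM in Ctrl embryos (0.34, SE 0.27, adjusted p = 0.33), and Hist1h2bm (-0.54, adjusted p = 0.24). Their groups overlapped, and Hist2h2bb was the largest H2B gene in KD-1cell embryos (26.9%, against 8.71% in Ctrl). H2B summed to 269 ± 65.9 FPKM in KD-1cell and 629 ± 41.9 FPKM in Ctrl embryos (SD, n = 4 each), H3 to 349.8 ± 43.0 and 433 ± 47.6 FPKM, and H4 to 232 ± 21.9 and 302 ± 32.0 FPKM. H2A without Hist2h2aa1 summed to 1291 ± 339.7 FPKM in KD-1cell and 1323 ± 104 FPKM in Ctrl embryos. Among the other main genes Hist1h4c fell by 0.51 (SE 0.09, adjusted p = 0.0017) and Hist1h3f by 0.33 (SE 0.11, adjusted p = 0.034), a call lost without Ctrl replicate 1 or 4 or KD-1cell replicate 1, 2 or 3, while Hist2h2aa2 was not called (0.04, SE 0.18, adjusted p = 0.89). The count of 32 was 21 without Ctrl replicate 1, 19 without Ctrl replicate 4, and 15 without the filter. H2B coding sequences differ in a short stretch, picked after the values were seen, that went with the size of the change. Genes with and without its letters overlapped in their changes, as described in the closing observations, and its part in the result was not tested.

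**Figure D4:**
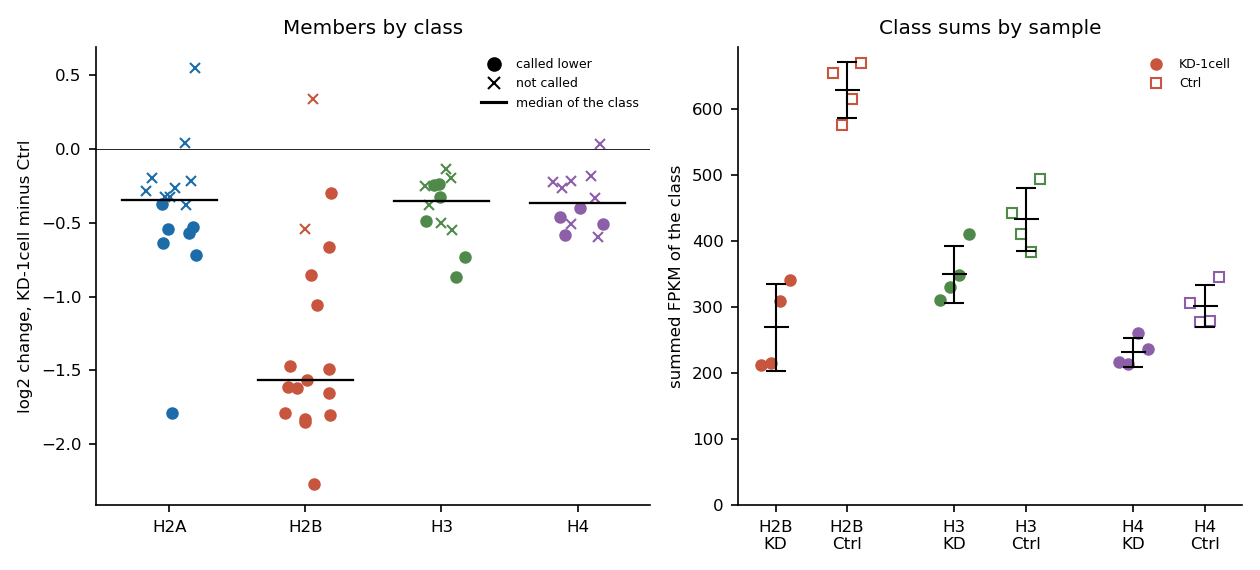
Left, log2 change (KD-1cell minus Ctrl, vertical axis) of each tested core histone gene but Hist2h2aa1 by class, filled where called lower and crossed where not called, with black lines at the class medians; H2B (median -1.56) lies lowest. Right, summed FPKM (vertical axis) of H2B, H3 and H4 in each KD-1cell and Ctrl column (n = 4 each) with mean ± SD, where H2B is at 211 to 341 FPKM in KD-1cell and 576 to 669.8 FPKM in Ctrl.

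In the MT2Mm series the core histone genes differed between the times far more than between genotypes. In Early2c embryos 55 of 60 genes rose against Late1c in the ko and 54 of 60 in the ctrl embryos, and none fell, where 33.9% and 33.5% of all rows rose and 36.6% and 45.7% fell. The median change was 0.94 in ko embryos, against -0.02 over all rows, and 1.03 in ctrl embryos, against -0.15. Hist1h2an had 29.5, 31.8 and 27.6 FPKM in Early2c ko and 3.22, 4.13 and 3.38 FPKM in Late1c ko embryos (2.89, SE 0.09, adjusted p = 1.3e-10). In ctrl embryos it had 30.0, 26.4 and 26.7 FPKM at Early2c and 4.18, 3.49 and 3.98 FPKM at Late1c (2.69, SE 0.09, adjusted p = 1.4e-10). The times were far apart and the genotypes overlapped. Hist1h2ak, Hist2h2ac and Hist1h2bm also changed by over 2 on the log2 scale in both genotypes (3.23, 3.51 and 2.92 in ko, 2.71, 2.69 and 2.60 in ctrl), and these are the 4 genes named above for E2-cell embryos against zygotes in C57BL/6. The stored messengers rose less: Hist2h2aa2 by 0.68 in ko and 1.01 in ctrl embryos, Hist1h3f by 0.76 and 0.59, Hist1h4c by 0.70 and 0.84. Hist1h2aa (-0.05 in ko, 0.04 in ctrl) and Hist1h2ba (-0.33 and -0.31) were not called in either genotype.

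Between genotypes at Late1c no core histone gene of 60 was called by limma, with 6 at an unadjusted p under 0.05, and of all rows 0.0455% rose and 0.0683% fell. At Early2c 1 of 60 rose and 7 fell in ko embryos, where 33.4% of all rows rose and 15.6% fell, so the share that fell (11.7%) was no higher than the background. Hist1h3i rose, with 6.66, 6.42 and 5.93 FPKM in ko and 4.04, 5.00 and 4.67 FPKM in ctrl embryos (0.43, SE 0.12, adjusted p = 0.011). Hist1h2bb fell, with 9.62 to 12.0 FPKM in ko and 12.5 to 14.8 FPKM in ctrl embryos (-0.33, SE 0.12, adjusted p = 0.039). The genotypes did not overlap for either gene. Of the 7 that fell 5 are H2B and 2 H4 genes, with changes of -0.33 to -0.19, and the calls of Hist1h2bb, Hist1h2bq, Hist1h2bk, Hist1h4b and Hist4h4 were each lost without at least 4 of the 6 Early2c columns or without the filter. The count was 4 without ctrl replicate 1, ctrl replicate 3, ko replicate 1 or ko replicate 2, and 5 without ko replicate 3; with columns scaled by the median of ratios, which moved the median of all rows by -0.13, it was 1 higher and 26 lower. The effect of the knockout differed between the times for 2 of 60 genes, both higher at Early2c (25.7% of all rows higher, 11.6% lower): Hist1h3i (0.70, SE 0.17, adjusted p = 0.0078) and the H2A gene Hist1h2af (0.47, SE 0.14, adjusted p = 0.019). Under that scaling 1 gene was higher and 6 were lower, and the count was 4 without Early2c ctrl replicate 3 or Late1c ctrl replicate 1 and 5 without Late1c ctrl replicate 2.

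**Figure D5:**
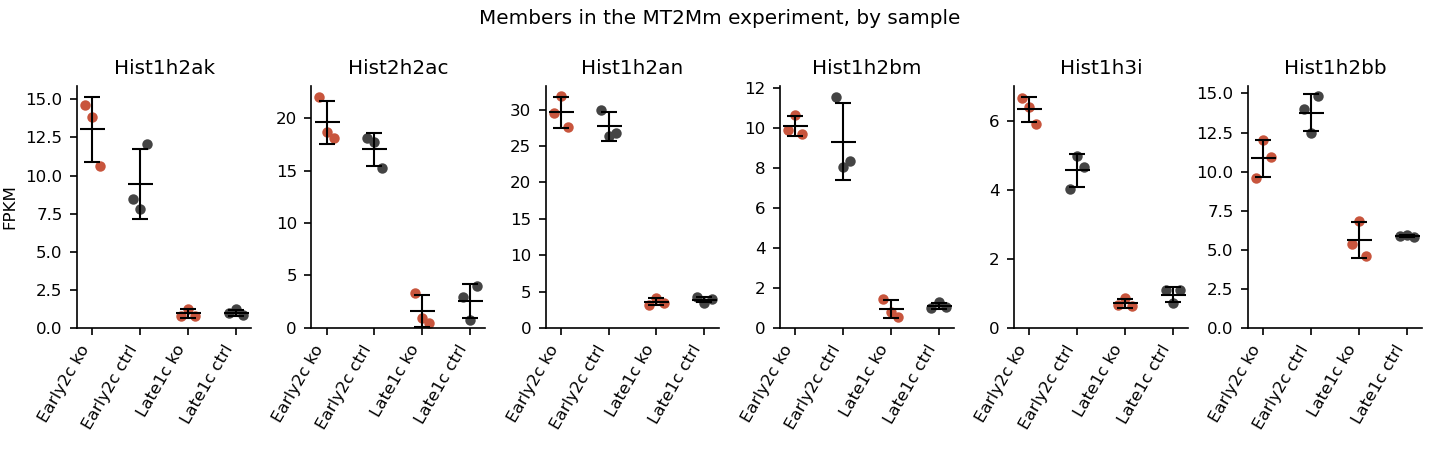
FPKM (vertical axis, from 0) of Hist1h2ak, Hist2h2ac, Hist1h2an, Hist1h2bm, Hist1h3i and Hist1h2bb in each column of Early2c ko, Early2c ctrl, Late1c ko and Late1c ctrl (horizontal), with 1 panel per gene and mean ± SD (n = 3). Early2c columns stand above Late1c columns in each panel, as for Hist1h2an (26.4 to 31.8 against 3.22 to 4.18 FPKM), and at Early2c the ko columns lie above the ctrl columns for Hist1h3i and below them for Hist1h2bb.

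Genes that serve the core histone messengers and proteins were counted beside them from lists. For 34 genes of histone transcription and messenger 3′ end processing, 12 rose and 4 fell in 4-cell against L2-cell embryos, where 30.2% of all rows rose and 26.2% fell, and of 30 histone chaperones 12 rose and 3 fell. Among 48 genes of S phase and replication 20 rose and 3 fell at that step, among them Cdc6, a loader of the replicative helicase, with 31.4 FPKM in 4-cell and 5.34 FPKM in L2-cell embryos (2.45). Of 9 replacement variants 3 rose and 2 fell, such as H2afx, the gene of H2A.X, which stood at 153 ± 12 FPKM in 4-cell and 334 ± 94 FPKM in L2-cell embryos (SD, n = 2 each). At 20 against 17 hours, when 47 core histone genes rose, 3 of 33 processing genes rose and 6 fell, 2 of 29 chaperones rose and 8 fell, and 4 of 47 S-phase genes rose and 7 fell, beside 5.13% and 14.5% of all rows. In Early2c against Late1c ctrl embryos 13 of 33 processing genes rose and 16 fell, and 11 of 45 S-phase genes rose and 30 fell, beside 33.5% and 45.7% of all rows. In KD-1cell embryos 5 of 31 processing genes rose and 10 fell, 11 of 29 chaperones rose and 4 fell, 19 of 42 S-phase genes rose and 4 fell, and 6 of 9 replacement variants rose and none fell, beside 29.8% and 13.9% of all rows. These counts describe the lists, and none was tested against other genes. There Ccna2, the gene of the S-phase cyclin A2, was at 12.8 ± 1.7 FPKM in KD-1cell and 36.1 ± 1.5 FPKM in Ctrl embryos (SD, n = 4 each; -1.47). H1foo, the oocyte linker histone, was at 240.0 ± 36 FPKM in KD-1cell and 81.5 ± 7.3 FPKM in Ctrl embryos (1.54). Of the cumulus and sperm markers 2 and 1 were tested in the knockdown, and none was called.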

How the data were processed

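Total RNA-seq libraries were made with a TruSeq kit (ribosomal RNA removed, random primers), named for the stages of early development, or with a SMARTer kit where RNA was scarce, and read as pairs of 150 bases, per the labels' protocols; the sources used here do not say which kit the other samples had. The authors deposited 1 table of FPKM values per gene. The submitters' processing notes name cutadapt 1.18, HISAT2 2.1.0, Cufflinks, StringTie 1.3.4d, Cuffdiff 2.2.1 and GRCm38, with no role or order, and the deposited FPKM give no counts, so no count test was possible. FPKM + 0.5 was put on the log2 scale and tested with limma 3.58.1 (R 4.3.3, lmFit and eBayes with a trend) in 4 fits: all 8 stages, the 3 times, KD-1cell with Ctrl, and the 4 MT2Mm groups. Rows with 1 FPKM or more in at least as many columns as the smallest group were tested, and p-values were adjusted by Benjamini and Hochberg over all of them. The filter left Hist2h2be untested in all fits, Hist2h3c1 in the stages, Hist2h4 in the times and the knockdown, and Hist2h2ab in the knockdown. Alternatives were other pseudocounts (0.1 and 1), no filter, scaling by the median of ratios, a replicate block, each column left out, and settings added after seeing the data. Named genes are the largest changes per comparison among called genes with a mean of 5 FPKM in 1 group, and the most abundant ones; some others were chosen after their values were seen. The members and gene lists were chosen with earlier results of these data known. Sequences come from GENCODE M21 and RefSeq; Python 3.11.15 with NumPy 2.4.6, pandas 2.3.3 and Matplotlib 3.10.9 handled tables and drawing. The fit was tested on simulated data.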

Additional observations from a re-analysis of the deposited data

Results flagged for a closer look

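In 54 groups of 4 columns, 3 had 1 column far from the other 3, where chance flags about 1 in 20 groups. Hist1h4a, an H4 gene, stood at 55.7 FPKM in KD-1cell replicate 3 and at 33.5 to 37.2 FPKM in the other KD-1cell columns. Summed H2A stood at 2542 FPKM in Ctrl replicate 4 and at 2188.5 to 2236 FPKM in the other Ctrl columns, and Hist2h2aa2, its largest gene, at 1073 FPKM in that column and at 943 to 957 FPKM in the others, so these are not separate events. For 2 genes the MT2Mm knockout's effect differed between Early2c and Late1c by the interaction test: Hist1h3i by 0.70 and Hist1h2af by 0.47 on the log2 scale.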

How the results depend on the processing

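Of 172 counts of called core histone genes, 15 are those reported and 157 come from alternatives; 127 of these stayed within 1.5 times of the reported count and 30 did not. The cause was not tested. Without the filter on low values the count was 5 for blastocyst against morula, 2 for 17 against 14 hours, 24 for 20 against 17 hours, 15 for the knockdown and 3 for ko against ctrl at Early2c. Scaling by the median of ratios gave 3 for zygote against MII, 27 for ko against ctrl at Early2c and 7 for its difference from Late1c, and a pseudocount of 1 gave 3 for zygote against MII. That scaling moved the median of all rows by over 0.1 in 8 of the 15 comparisons, from -0.18 (4-cell against L2-cell) to 0.17 (Early2c against Late1c ctrl). With columns left out in turn the counts ran from 1 to 25 for zygote against MII, 5 to 11 for E2-cell, 15 to 34 for L2-cell, 32 to 43 for 4-cell, 17 to 33 for 8-cell, 3 for morula, 3 for blastocyst, 3 to 9 at 17 hours, 30 to 31 at 20 hours, 19 to 33 for the knockdown, 0 at Late1c, 4 to 7 at Early2c, 53 to 56 and 54 to 55 for Early2c against Late1c in ko and ctrl, and 2 to 5 for the interaction; a lone column left in a group of 2 is assumed to vary like the other groups. Hist2h2aa1 changed by -4.95 at 20 against 17 hours, by 0.42 without 20-hour replicate 1, where it is listed at 0, and by -10.3 without 20-hour replicate 2. With a replicate block the counts were 12 for 17 against 14 hours, 35 for the knockdown and 7 at Early2c. Same-numbered columns correlated at -0.123 to 0.132. The best match had the same number for 10 of 14 stage columns, 2 of 6 timed columns, 3 of 8 knockdown columns and 6 of 12 MT2Mm columns. These values cannot settle whether the numbers pair the columns. No block could be fitted for the steps to and from 4-cell embryos, whose columns are replicates 3 and 4. Since depth is unknown, no counting error could be given for any level.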

Other observations

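The H2B genes differ in a short stretch of their coding sequence that went with the size of their change in the LncR-3363 knockdown. The stretch was picked after the values were seen, so it is no independent evidence, and the sources used here do not give the antisense oligonucleotide's sequence. The stretch runs from coding base 66 to 95, counted from 1 at the A of the start codon, and is shown for the gene with the largest fall and for 4 genes without the letters GGACGGC, which stand in capitals where present.
Hist1h2bh: ccagaagaaGGACGGCaagaagcgcaagcg
Hist1h2bp (G69A and C78T from Hist1h2bh): ccaaaagaaggatggcaagaagcgcaagcg
Hist1h2bb (C66G and C78T): gcagaagaaggatggcaagaagcgcaagcg
Hist1h2bm (C78T): ccagaagaaggatggcaagaagcgcaagcg
Hist2h2bb (C66G, G75A and C78T): gcagaagaaagatggcaagaagcgcaagcg
The 11 tested H2B genes with the letters there all fell, with changes of -2.27 to -0.86 (median -1.65). Of the 6 tested without them 4 fell, with a median of -0.60 and a range of -1.62 for Hist1h2bp to 0.34 for Hist2h2bb, so the groups overlap. Among tested rows other than core histone genes 12.6% of 10215 fell and 31.9% rose, and of the 1354 with GGACGGC in a transcript 25.8% fell and 25.8% rose. Longer strings were likewise chosen after the values were seen. With TGGACGGC 43.3% of 402 fell and 14.2% rose, with ACTGGACGG 51% of 102 fell and 16.7% rose, and with the last string lengthened by G before it and C after it 9 of 10 fell and 1 rose; none of the longer strings stands in a tested core histone transcript. Transcript length was not accounted for, and whether the letters bear on the change was not tested.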
